A study of Rattus norvegicus with 18 samples.

Results

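The 6 genes described here, Ccl2, Ccl3, Ccl4, Ccl5, Ccl7 and Ccl20, encode inflammatory CC chemokines and are 6 of 13810 genes named on the arrays. All probe sets annotated to 1 of these genes alone were taken from 2 rat expression array types, which gave 6 probe sets of 31142 that are not controls, 5 on array A (RAE230A) and 1, that of Ccl7, on array B (RAE230B). All 6 passed the filter, which drops the dimmest 40% of the probe sets of an array type by mean level over all RNAs. The limma threshold was an adjusted p of 0.05. The genes were chosen by name with earlier results of these arrays in view, in which chemokine genes were higher after VEGF. Their VEGF differences are therefore given as a description with no test. The Ang1 comparison uses the same untreated RNAs, so the choice of the genes bears on its differences and ranks too. The direct comparison of VEGF with Ang1 uses the same VEGF RNAs, and the choice bears on it likewise.

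The arrays read 9 RNAs from rings of thoracic aorta, cut at 2 mm from male Fisher 344 rats aged 5 weeks and kept in serum-free culture. Untreated rings (3 RNAs) stayed in medium alone for 14 days. VEGF rings (3 RNAs) received recombinant human vascular endothelial growth factor at 10 ng/ml on day 13. Ang1 rings (3 RNAs) received recombinant human angiopoietin-1 at 100 ng/ml together with 5 µg/ml of a poly-His antibody on day 13. No group received the antibody alone, so the factor and the antibody cannot be told apart. RNA was taken after 20 h per the sample labels and after 18 h per the design text, from 4 to 6 pooled rings. By the design text every group held 1 RNA from each of 3 animals, yet no label says which replicate numbers share an animal. The p-values measure the spread between these RNAs, which may be technical in part.

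CC chemokines are small secreted proteins that attract leukocytes and carry a pair of adjacent cysteines near the start of the mature protein. They bind G protein-coupled receptors on monocytes, macrophages, T cells and dendritic cells, and they are held on vessel walls by glycosaminoglycans. Their genes are classical targets of NF-kB, the transcription factor switched on by tumour necrosis factor and interleukin-1. In the vessel wall they are made by endothelial cells, smooth muscle cells, fibroblasts and resident macrophages, and in the aortic ring model macrophages accompany the outgrowth of sprouts.

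RefSeq promoter windows (assembly GRCr8, 250 bases before to 50 after the gene start) matched 2 of the 6 genes, and both are shown because the levels of the genes were mostly ordered alike across the groups. Capitals mark matches on either strand to any of 4 motifs. The NF-kB-like motif is a run of 3 G and a run of 2 C with any 5 bases between. The AP-1-like motif reads TGANTCA. The TATA box motif reads TATAAA. The STAT-like motif is TT, any base, C, any 3 bases and AA, and N stands for any base. Ccl7 lies at chr10:67513845-67514144 and Ccl20 at chr9:91836909-91837208, both on the + strand.
Ccl7: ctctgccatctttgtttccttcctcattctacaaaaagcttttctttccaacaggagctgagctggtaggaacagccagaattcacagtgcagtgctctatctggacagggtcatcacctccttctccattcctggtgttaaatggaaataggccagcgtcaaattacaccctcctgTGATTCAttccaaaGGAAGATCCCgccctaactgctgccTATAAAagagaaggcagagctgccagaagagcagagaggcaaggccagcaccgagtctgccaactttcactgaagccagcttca
Ccl20: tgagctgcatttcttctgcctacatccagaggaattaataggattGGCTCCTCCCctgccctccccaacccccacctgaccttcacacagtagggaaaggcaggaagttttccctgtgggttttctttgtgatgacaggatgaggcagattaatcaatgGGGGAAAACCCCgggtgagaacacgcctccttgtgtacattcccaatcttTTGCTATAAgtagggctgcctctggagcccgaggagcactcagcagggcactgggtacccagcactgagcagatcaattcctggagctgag
The Ccl7 window held 1 NF-kB-like match, GGAAGATCCC on the minus strand, 59 to 50 bases before the start, 1 AP-1-like match 73 to 67 bases before it and 1 TATA box 34 to 29 bases before it. The Ccl20 window held 4 NF-kB-like matches. Of these, 3 overlap each other in the block 91 to 80 bases before the start, and 1 lies 205 to 196 bases before it. It also held 1 STAT-like match, TTGCTATAA, 41 to 33 bases before the start. Among 33469 windows of the same length, 47.3% held the NF-kB-like letters, 7.33% the AP-1-like, 14.2% the TATA box and 38.2% the STAT-like letters. A match describes letters and not a site in use.

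Before the results, 2 RNAs that stood apart from the rest must be named. Over the probe sets kept, the median correlation with the other arrays was 0.79 for untreated replicate 2 and 0.69 for Ang1 replicate 2 on array A, against 0.87 to 0.94 for the other 7 RNAs. The same medians on array B were 0.75, 0.43 and 0.81 to 0.87. The Gapdh 3' control gave a deposited signal of 64.4 and 446.9 in these 2 RNAs on array A, against 2218 to 3247 in the others. The differences of the members, their correlations and the gene lists are therefore also given over the 7 RNAs without these 2, a reduction chosen with these values known. The actin control's 3' to 5' signal ratio on array A was 1.86 to 7.70 in untreated, 6.18 to 8.29 in Ang1 and 8.79 to 12.4 in VEGF RNAs, and its part in the results was not tested. Per the labels, untreated replicate 1 alone was labelled by a 2-cycle procedure. The part of this in its levels was not tested either.

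Mean levels of the 6 genes were lowest in untreated rings, and in 5 of the 6 they were highest after Ang1, with VEGF between. The exception was Ccl5, whose mean was highest after VEGF, with all groups overlapping. The rings are bulk tissue, so more cells of a type and more RNA per cell cannot be told apart in any of these values. In the plot of normalised levels by RNA, Ccl4 separates all groups and the other genes do not. Deposited signals are linear intensities. Levels in log2 units are log2(signal + 16) after quantile normalisation, and they are compared between groups for 1 probe set at a time.

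**Figure D1:**
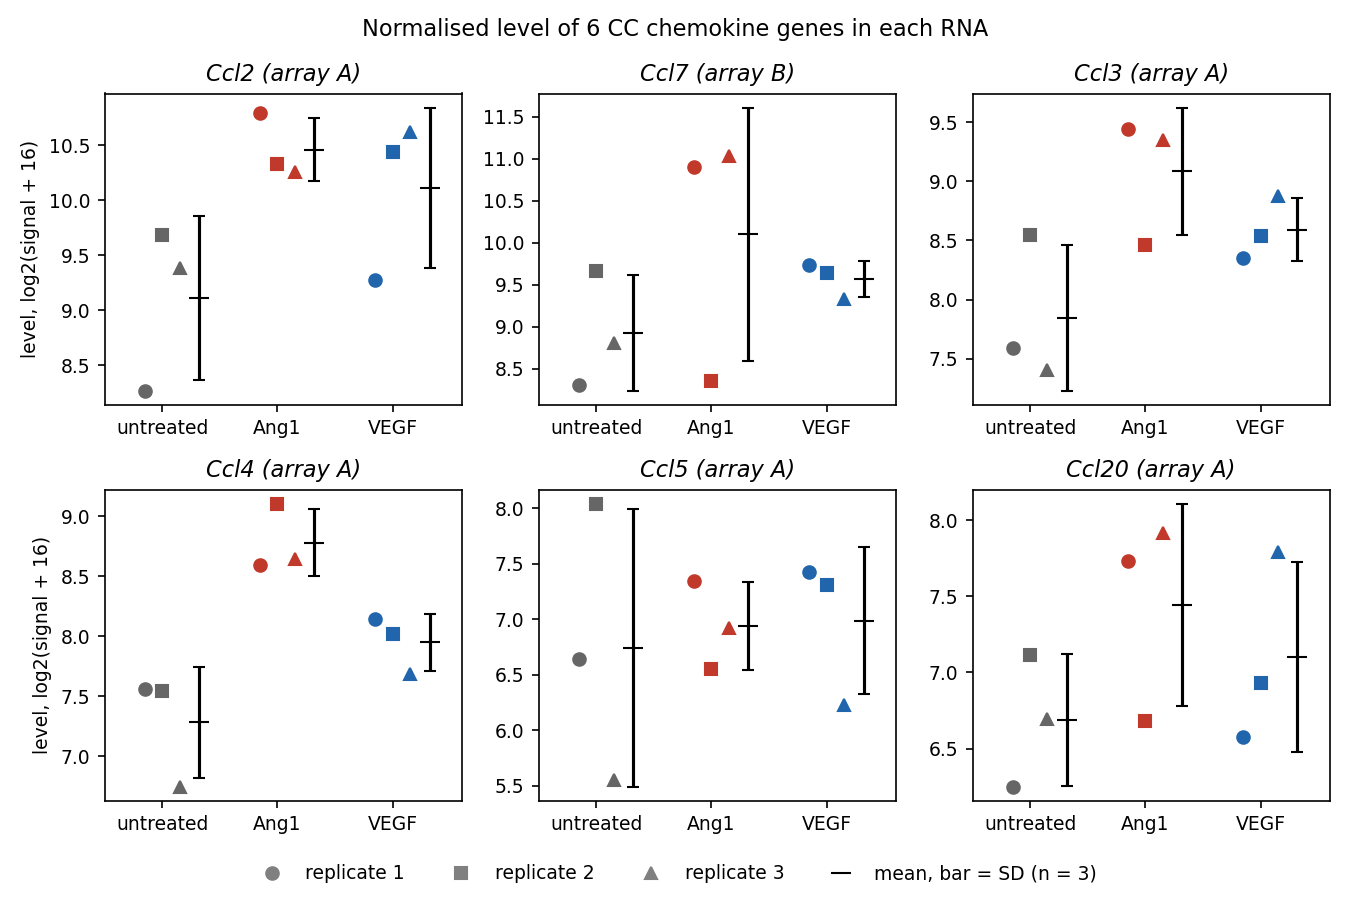
Normalised level (vertical axis, log2(signal + 16), own scale per gene) of each gene in the 9 RNAs, by group and with symbols for the replicate number, and beside them the mean with SD (n = 3). All 3 Ang1 values lie above all 3 untreated values for Ccl2 and Ccl4, and for Ccl4 the VEGF values lie between both groups.

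Ccl2 and Ccl7 attract monocytes through the receptor Ccr2. The deposited signal of Ccl2 (probe set 1367973_at) was 286.2, 866.4 and 669.5 in untreated replicates 1 to 3, 1747.8, 962.5 and 1233.9 in Ang1 replicates and 639, 1383.7 and 1505.8 in VEGF replicates. Every Ang1 value lay above every untreated one, whereas VEGF replicate 1 lay within the untreated range. On the log2 scale the level was 9.11 ± 0.74 in untreated, 10.46 ± 0.29 in Ang1 and 10.11 ± 0.73 in VEGF rings (SD, n = 3). This amounts to a 2.55-fold difference for Ang1 (1.35 ± 0.44 log2, SE, limma, adjusted p = 0.953) and a 2.00-fold difference for VEGF (1.00 ± 0.44). Omitting the 2 RNAs that stood apart gave 1.71 ± 0.50 and 1.29 ± 0.46. Without untreated replicate 1, the RNA labelled by the 2-cycle procedure, the VEGF value was 0.58 and the Ang1 value 0.92.

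The probe set of Ccl7 (1379935_at, array B) gave deposited signals of 325.9, 963.6 and 478.8 in untreated, 401.3 to 1931.5 in Ang1 and 673.9 to 1064.1 in VEGF rings. Ang1 replicates 1 and 3 had the highest normalised levels of all 9 RNAs, 10.91 and 11.03 log2 units, and Ang1 replicate 2 the next to lowest, 8.36. The deposited signal of Ang1 replicate 3, 884, comes from an array scaled to a lower mean than the others (a trimmed mean of 94.8 against 250.1 at most), which the normalisation takes into account. The group means were 8.93 ± 0.69 in untreated, 10.10 ± 1.51 in Ang1 and 9.57 ± 0.21 in VEGF rings (SD, n = 3). The Ang1 difference was 1.17 ± 0.65 (SE, limma, adjusted p = 0.481) and the VEGF difference 0.64 ± 0.65. Without untreated replicate 2 and Ang1 replicate 2, the Ang1 difference was 2.50 ± 0.31, or 5.64-fold (limma, adjusted p = 0.105, 2 against 2 RNAs), and the VEGF difference 1.05 ± 0.29. Leaving out Ang1 replicate 2 alone gave 2.15 for Ang1, leaving out Ang1 replicate 3 gave 0.70. The VEGF difference was 0.32 without untreated replicate 1.

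Ccl3 and Ccl4 are closely related chemokines that attract macrophages and T cells. Ccl4 (1370832_at) showed the cleanest order of the 6 genes. Its deposited signal was 164.2, 141.6 and 79.8 in untreated, 369, 477.8 and 398.7 in Ang1 and 265.8, 244.5 and 199.3 in VEGF replicates. The 3 Ang1 RNAs were the highest, the 3 VEGF RNAs followed and the 3 untreated RNAs were the lowest, with no overlap between neighbouring groups. In log2 units the levels were 7.28 ± 0.46, 8.78 ± 0.28 and 7.95 ± 0.24 for untreated, Ang1 and VEGF (SD, n = 3). Ang1 differed from untreated by 1.5 ± 0.32, or 2.82-fold (SE, limma, adjusted p = 0.953), and 0.0945% of the kept probe sets of array A had a larger difference upward. VEGF differed from untreated by 0.67 ± 0.32 (1.59-fold). VEGF lay below Ang1 by 0.83 ± 0.32 (limma, adjusted p = 0.972). Omitting 1 RNA at a time put the VEGF difference between 0.39, with untreated replicate 3 omitted, and 0.80. The Ang1 difference then ran from 1.22 to 1.62. Over the 7 RNAs the differences were 1.52 ± 0.34 for Ang1 and 0.83 ± 0.31 for VEGF.

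For Ccl3 (1369815_at) the deposited signals were 168.1, 327.3 and 143.8 in untreated, 681, 351.6 and 662.5 in Ang1 and 311.3, 360 and 454.7 in VEGF replicates. Untreated replicate 2 was the highest of its group and lay among the VEGF values, and Ang1 replicate 2 was the lowest of its group. The Ang1 and untreated groups did not overlap in deposited signal but did after normalisation, where Ang1 replicate 2 stood at 8.46 and untreated replicate 2 at 8.55. Levels were 7.85 ± 0.61, 9.08 ± 0.54 and 8.59 ± 0.27 log2 units in untreated, Ang1 and VEGF rings (SD, n = 3). The differences were 1.24 ± 0.39 for Ang1 (2.36-fold, SE, limma, adjusted p = 0.953) and 0.74 ± 0.39 for VEGF (1.67-fold). With the 2 divergent RNAs left out they were 1.95 ± 0.30 (limma, adjusted p = 0.26) and 1.13 ± 0.27. With limma's array weights, which gave Ang1 replicate 2 a weight of 0.131 and untreated replicate 2 a weight of 0.303, the Ang1 difference was 1.79 ± 0.23 and passed the threshold (adjusted p = 0.00600). It was the 1 member call among all the settings tried. The limma adjusted p of this difference over those settings ran from 0.00600 to 0.992.

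Ccl5 attracts T cells, monocytes and eosinophils. Its probe set (1369983_at) was the most variable in untreated rings, with deposited signals of 73.7, 214.1 and 25.8, against 147.2, 129.3 and 97 in Ang1 and 151.2, 142.8 and 63.5 in VEGF replicates. Untreated replicate 2 was the highest of all 9 RNAs and untreated replicate 3 the lowest. The means were 6.74 ± 1.25 in untreated, 6.94 ± 0.40 in Ang1 and 6.99 ± 0.66 in VEGF rings (SD, n = 3). The differences, 0.20 ± 0.57 for Ang1 (SE, limma, adjusted p = 0.984) and 0.25 ± 0.57 for VEGF, were smaller than their errors. They turned to -0.40 and -0.35 without untreated replicate 3, and were 0.85 and 0.90 without untreated replicate 2. Without the 2 RNAs that stood apart they were 1.06 ± 0.46 and 0.91 ± 0.42.

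Ccl20, the ligand of Ccr6, attracts dendritic cells and T cells. Its probe set (1369814_at) read 53.3, 102.6 and 76 in untreated, 196.6, 142.7 and 226.3 in Ang1 and 71.9, 105.6 and 216.9 in VEGF replicates. As deposited, the Ang1 signals lay above all untreated ones, and of the VEGF signals that of replicate 3 stood well above the others. After normalisation Ang1 replicate 2 (6.68) lay below untreated replicates 2 (7.12) and 3 (6.69). Levels were 6.69 ± 0.43, 7.44 ± 0.67 and 7.10 ± 0.62 log2 units in untreated, Ang1 and VEGF rings (SD, n = 3). The differences were 0.76 ± 0.43 for Ang1 (1.69-fold, SE, limma, adjusted p = 0.953) and 0.41 ± 0.43 for VEGF (1.33-fold). Without VEGF replicate 3 the VEGF difference was 0.07, and without VEGF replicate 1 it was 0.67. Leaving out the 2 divergent RNAs gave differences of 1.41 ± 0.39 and 0.65 ± 0.36.

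**Figure D2:**
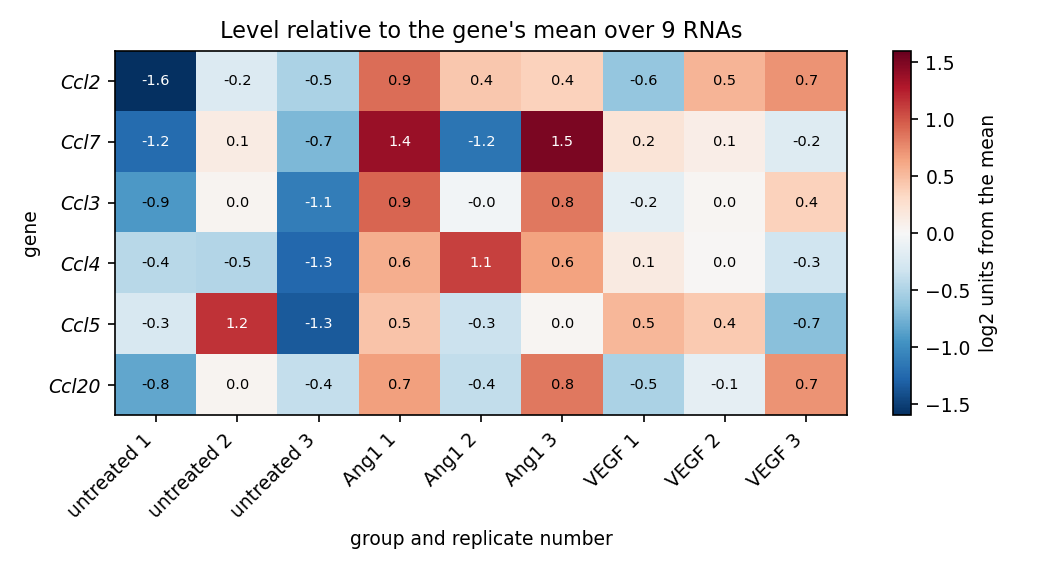
Level of each gene (rows) in each RNA (columns) relative to the gene's mean over the 9 RNAs, in log2 units (colour and printed value). Ang1 replicate 1 is among the 3 highest RNAs for 6 of 6 genes, and untreated replicates 1 and 3 are each among the 3 lowest for 5.

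The same RNAs tended to be high or low for several genes, as the map of centred levels shows. Ang1 replicate 1 was among the 3 highest RNAs for all 6 genes and Ang1 replicate 3 for 4. Untreated replicates 1 and 3 were each among the 3 lowest for 5 genes, and of these replicate 1 was the RNA labelled by the 2-cycle procedure. Untreated replicate 2 was among the 3 lowest for 1 gene and Ang1 replicate 2 for 3. The VEGF RNAs differed among themselves, replicate 1 being low for Ccl2, Ccl3 and Ccl20 and replicate 3 low for Ccl5. Over the 5 probe sets of array A, the mean centred level was -0.81, 0.11 and -0.92 in untreated, 0.71, 0.15 and 0.54 in Ang1 and -0.12, 0.17 and 0.17 in VEGF replicates 1 to 3. The genes were correlated to different degrees. Over the 9 RNAs, Pearson's r between the 10 pairs of probe sets on array A ran from 0.11 to 0.86 and was above 0.5 in 5 pairs. It was highest for Ccl3 with Ccl20 (0.86) and Ccl2 with Ccl3 (0.79), and for the pairs of Ccl5 it was 0.11 to 0.47. The low values of Ccl5 with Ccl4 and Ccl3 rested in part on the 2 RNAs that stood apart. Over the other 7 RNAs r was 0.84 for Ccl5 with Ccl4 (0.35 over 9), 0.56 for Ccl5 with Ccl3 and 0.87 for Ccl3 with Ccl4 (0.68 over 9), while Ccl5 stayed at 0.24 with Ccl2 and 0.10 with Ccl20. These values describe arrays that share 1 normalisation and include the group differences.

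To ask how VEGF-treated and untreated rings compare over the whole set, all 6 differences were set side by side. Each was above 0, from 0.25 (Ccl5) to 1.00 (Ccl2), as were 49.2% of the kept probe sets on array A and 48.9% on array B. In 1 gene, Ccl4, all VEGF values lay above all untreated values, where 3.63% of the 9520 kept probe sets of array A and 2.53% of the 9166 of array B did so. Nothing is read from either count, because the choice of the genes used this contrast. The median of the 5 differences on array A was 0.67, beside -0.01 over all kept probe sets with quartiles of -0.22 and 0.22. Without the 2 RNAs that stood apart VEGF values lay above untreated ones without overlap in Ccl3, Ccl4 and Ccl7. In this direction 8.01% of the probe sets of array A and 6.32% of array B did so. Over all probe sets limma called 0 on either array (0%), with 157 (1.65%) at an unadjusted p below 0.05 on array A and 66 (0.72%) on array B, and array weights also called 0.

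**Figure D3:**
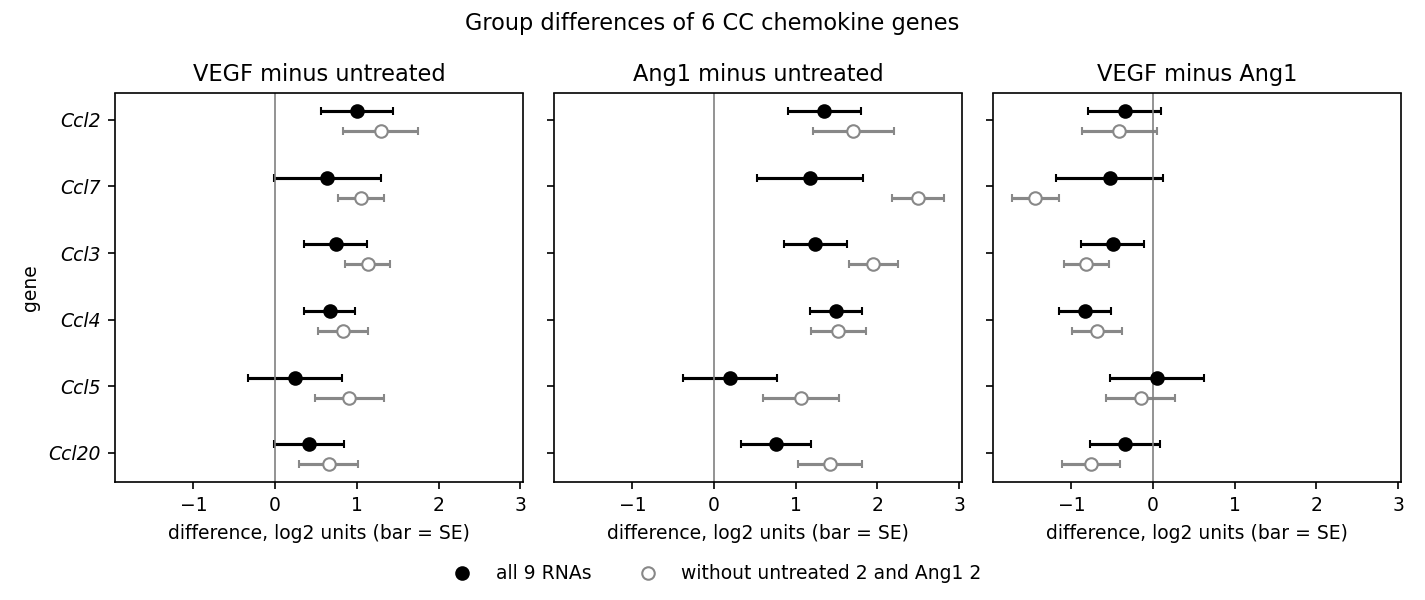
Difference between groups in log2 units (horizontal axis, bar = SE) for each gene in 3 comparisons, with all 9 RNAs (filled) and without untreated replicate 2 and Ang1 replicate 2 (open). The Ang1 differences are above 0 for all 6 genes, and the largest, 2.50, is that of Ccl7 without the 2 RNAs.

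For Ang1 against untreated rings, which shares the untreated arrays with the VEGF comparison, the 6 differences ran from 0.20 (Ccl5) to 1.5 (Ccl4). The choice of the genes thereby bears on this comparison as well, and nothing is read from the counts of members or their median. All were above 0, as were 47% of the kept probe sets on array A and 49.2% on array B. In Ccl2 and Ccl4 all Ang1 values lay above all untreated values, 2 of the 5 probe sets on array A. Of all kept probe sets there, 3.57% did so. Ccl7 overlapped, and 8.73% of the kept probe sets of array B were higher without overlap. In deposited signal Ccl3 and Ccl20 joined Ccl2 and Ccl4, 4 of 5 on array A, where 6.19% of all were higher without overlap. Without the 2 RNAs that stood apart none of the 6 genes overlapped. With 2 against 2 RNAs, however, 18.3% of the probe sets of array A and 21% of array B were higher without overlap. The median difference of the 5 members of array A was 1.24, beside -0.03 over all kept probe sets with quartiles of -0.30 and 0.24. No member passed the adjusted threshold, and limma called 0 probe sets on array A (0%) and 0 on array B (0%), with 302 (3.17%) and 960 (10.5%) at an unadjusted p below 0.05. With array weights 6 probe sets of array A, Ccl3 among them, and 2 of array B were called.

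VEGF and Ang1 were then compared directly. The VEGF RNAs here are those of the contrast that led to the choice of the genes. That choice bears on this comparison too, and nothing is read from its counts of members. The VEGF mean was below the Ang1 mean in 5 of the 6 genes, while 52.2% of the kept probe sets on array A and 52.4% on array B were higher after VEGF. In Ccl4 all VEGF values lay below all Ang1 values, 1 of 5 probe sets on array A against 4.3% of all kept probe sets, and Ccl7 on array B, where 9.52% did so, overlapped. The differences of Ccl2 (-0.35 ± 0.44), Ccl3 (-0.49 ± 0.39), Ccl20 (-0.35 ± 0.43) and Ccl7 (-0.53 ± 0.65) were each below 1.5 times their SE, and for Ccl5 the difference was 0.05 ± 0.57. For Ccl2 the difference turned to 0.07 without VEGF replicate 1. None passed (limma, adjusted p = 0.972 for Ccl2, Ccl3, Ccl4 and Ccl20, 0.994 for Ccl5 and 0.717 for Ccl7), and 0 of all probe sets were called on array A (0%), with 189 (1.99%) at an unadjusted p below 0.05, and 0 on array B (0%), with 777 (8.48%). Array weights called 24 and 8. Without the 2 RNAs that stood apart VEGF lay below Ang1 without overlap in Ccl3 (-0.82 ± 0.27), Ccl4 (-0.69 ± 0.31) and Ccl7 (-1.44 ± 0.29), where 9.76% of the probe sets of array A and 13.5% of array B did so. Ccl2 (-0.41 ± 0.46), Ccl20 (-0.76 ± 0.36) and Ccl5 (-0.15 ± 0.42) overlapped.

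**Figure D4:**
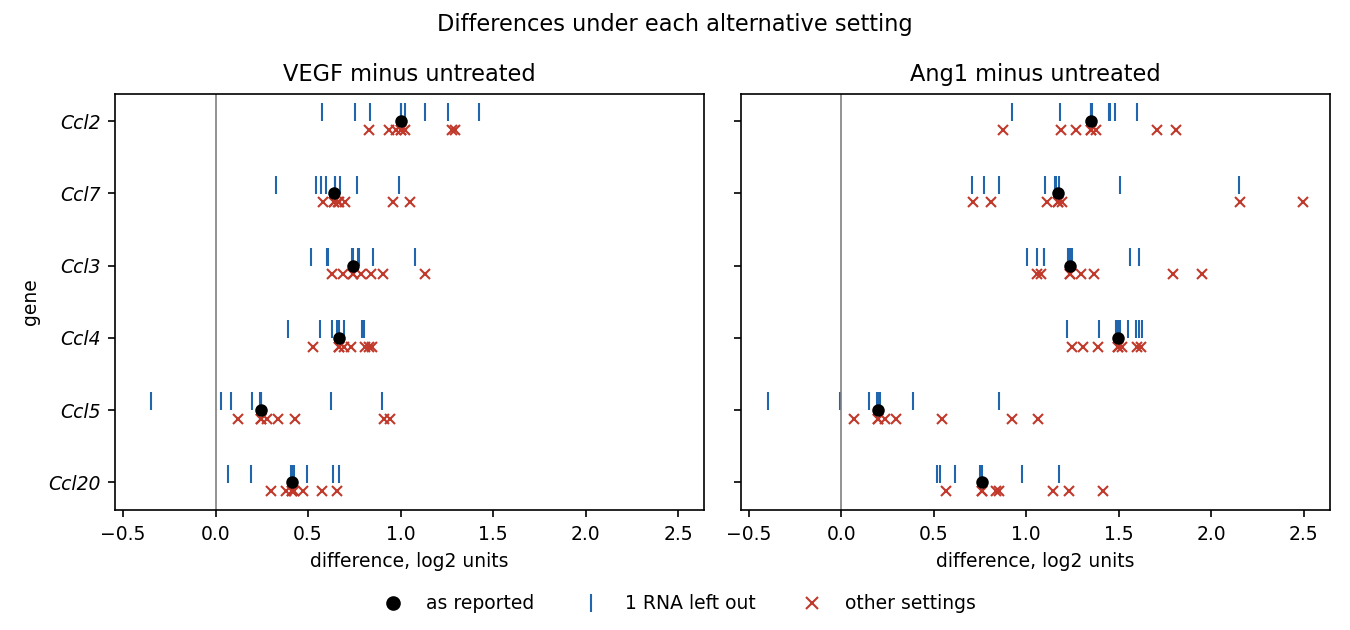
Difference in log2 units (horizontal axis) of each gene under every setting tried, as reported (circles), with 1 RNA left out (blue bars) and under the other settings (crosses). The panels show VEGF and Ang1 against untreated rings, and only Ccl5 has values on both sides of 0. Ccl4 ran from 1.22 to 1.62 for Ang1.

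The receptors of these chemokines gave weak signals on the arrays. Of 11 listed CC chemokine receptor genes 7 had a probe set, and 1 passed the filter. This was Ccrl2, a receptor-like protein that binds chemerin (array B), with deposited signals of 148.7 to 392.8 and differences of 0.24 ± 0.31 after VEGF and 0.32 ± 0.31 after Ang1 (limma, adjusted p = 0.646). The signal of Ccr2 ran from 5.8 to 89.4, that of Ccr1 from 7.2 to 54.5, of Ccr6 from 11.8 to 68.2, of Ccr3 from 39 to 244.2, of Ccr4 from 33.1 to 175.3 and of Ccr10 from 10.2 to 122.6. These 6 had mean levels at or below the 33.9th percentile of their array, where the arrays bear little on differences. Atypical receptors take chemokines up without the usual signalling, and of 4 listed genes 2 passed the filter. Ackr2 differed by 0.15 ± 0.32 after VEGF and 0.23 ± 0.32 after Ang1, and Ackr3 by -0.24 ± 0.27 and -0.16 ± 0.27. Ackr1 and Ackr4 on array B did not pass it, with signals of 14.6 to 220.8 and 32.8 to 117.6. For Ackr1 the lowest VEGF signal, 81.1, lay above the highest untreated one, 55.9.

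Among the other CC chemokine genes 3 passed the filter. Ccl19, a ligand of Ccr7 that guides dendritic cells and T cells, had Ang1 values above all untreated ones (1.48 ± 0.35, limma, adjusted p = 0.466), and after VEGF it differed by 0.38 ± 0.35. Without the divergent RNAs these values were 1.77 ± 0.39 and 0.53 ± 0.35. Ccl21 differed by 0.86 ± 0.73 after VEGF and 0.44 ± 0.73 after Ang1, and Ccl22 by 0.02 ± 0.30 and 0.01 ± 0.30. Of 12 CXC chemokine genes on array A 7 passed the filter, and of these 6 were higher after Ang1 (median 0.70) and 6 after VEGF (median 0.61), and 0 passed the threshold. The same counts held over the 7 RNAs, with medians of 0.72 and 0.84. On array B 2 passed the filter. After Ang1 both were lower, and after VEGF 1 was higher and 1 lower. Cxcl11 differed by -0.10 ± 0.57 after Ang1 and 0.45 ± 0.57 after VEGF, and by 0.59 ± 0.56 and 1.05 ± 0.51 over the 7 RNAs. Cxcl14 differed by -0.65 ± 0.60 and -0.20 ± 0.60. Cxcl2, a neutrophil chemokine, differed by 1.84 ± 0.48 after Ang1 and by 2.65 ± 0.39 over the 7 RNAs (limma, adjusted p = 0.953 and 0.26). After VEGF Cxcl2 differed by 1.33 ± 0.48, without overlap, and by 1.57 ± 0.36 over the 7 RNAs. Cxcl1 differed by 1.25 ± 0.85 after VEGF, without overlap, and by 1.57 ± 0.85 after Ang1, with overlap. Over the 7 RNAs its values were 1.23 ± 0.42 and 2.80 ± 0.46.

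Of 24 listed genes of NF-kB and its cytokine inputs 19 were on array A, 16 passed the filter, and 0 passed the test in either direction. After Ang1 10 were higher and 6 lower (median 0.13), and after VEGF 15 were higher and 1 lower (median 0.24), where 47% and 49.2% of all kept probe sets were higher. In the 7 RNAs 11 and 13 were higher, with medians of 0.30 and 0.21. The genes whose groups did not overlap were led by the cytokines. Tnf differed by 1.92 ± 0.47 after Ang1 and 1.20 ± 0.47 after VEGF, Il1b by 1.42 ± 0.33 and 0.94 ± 0.33, and Il1a by 0.91 ± 0.30 after Ang1 (limma, adjusted p = 0.953 for each after Ang1). Over the 7 RNAs the Ang1 differences were 2.44 ± 0.41 for Tnf, 1.90 ± 0.31 for Il1b and 1.13 ± 0.28 for Il1a, and the VEGF differences of Tnf and Il1b were 1.17 ± 0.38 and 1.25 ± 0.28. Tnip1, an inhibitor of NF-kB, differed by 0.57 ± 0.32 after VEGF. The mean of the list, centred over the 9 RNAs, was -0.34 to -0.14 in untreated, -0.33 to 0.35 in Ang1 and -0.01 to 0.19 in VEGF RNAs. Pearson's r with it over the 9 RNAs was 0.57 for Ccl2, 0.68 for Ccl3, 0.73 for Ccl20, 0.26 for Ccl4 and 0.04 for Ccl5. Over the 7 RNAs it was 0.91, 0.97, 0.90, 0.79 and 0.48 in the same order, so each value was higher without the 2 RNAs that stood apart. Of 11 kept genes of proteoglycans and proteases that hold or cut chemokines, 10 were higher after Ang1 and 9 after VEGF, 0 of them past the threshold, with the syndecan gene Sdc4 at 1.21 ± 0.71 after VEGF. Over the 7 RNAs 7 and 8 were higher, and Sdc4 was at 0.55 ± 0.25.

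**Figure D5:**
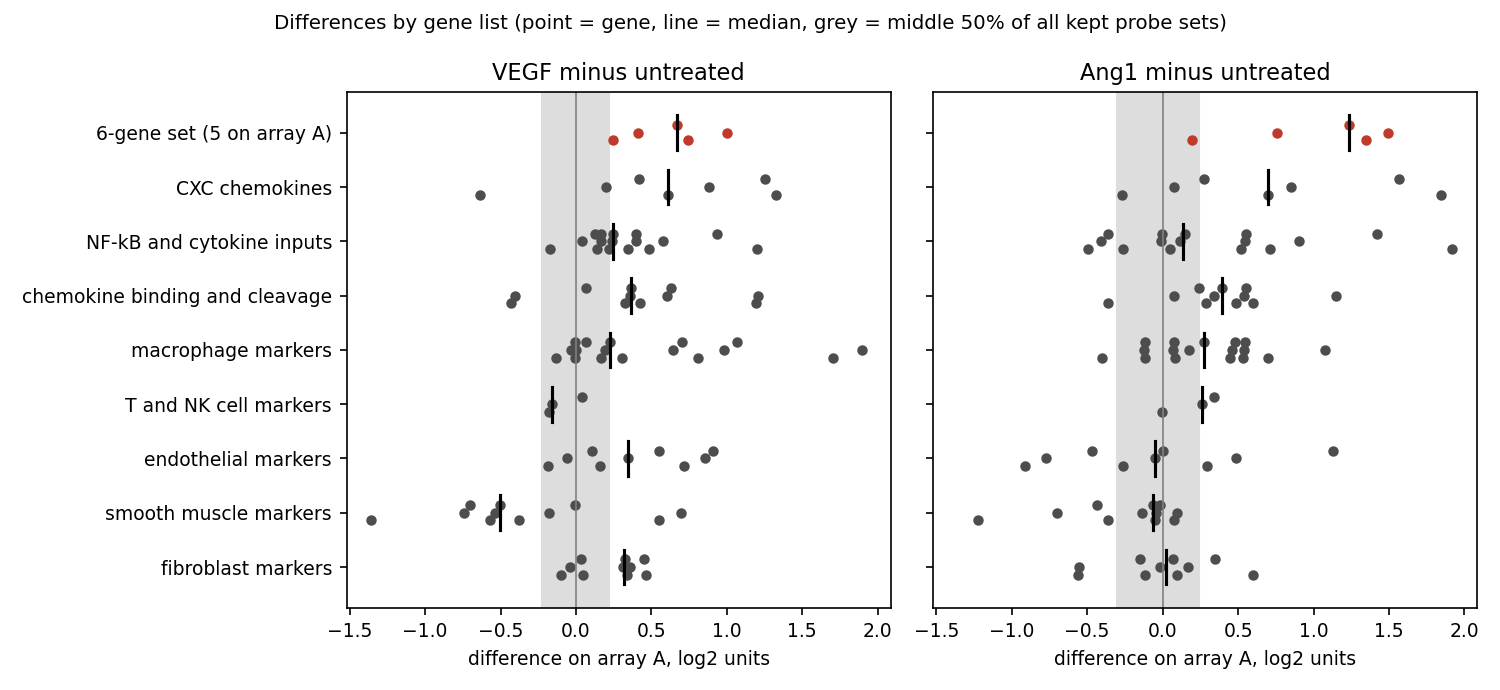
Differences on array A (horizontal axis, log2 units) for the genes of each list after VEGF and after Ang1, with the list median (line) and the interquartile range of all kept probe sets (grey band). The 5 chemokines of array A (red) have medians of 0.67 and 1.24, and 4 of them lie right of the band after Ang1.

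The rows nearest in pattern to the mean of the 5 members of array A, among 7999 probe sets of other genes, were Grk5 (a kinase of G protein-coupled receptors, r = 0.91 over the 9 RNAs and 0.96 over the 7 without those that stood apart), Il1b (0.90 and 0.92), Birc3 (0.90 and 0.90), Gsk3a (0.89 and 0.95) and Nol6 (0.87 and 0.88). On array B the rows nearest to Ccl7 were Itgal, an integrin subunit of leukocytes (0.94 and 0.96), Steap4 (0.92 and 0.93), Adgre1, the macrophage marker known as F4/80 (0.91 and 0.96), Riox2 (0.90 and 0.90) and Fubp1 (0.89 and 0.97). These are descriptions over 9 RNAs that share 1 normalisation, and the rows were selected for their likeness.

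Which cells held these transcripts cannot be read from pooled rings. Markers of the labelled tissue were present. The smooth muscle gene Myh11 gave 739 to 3791, the endothelial gene Pecam1 38.5 to 294.8 and the fibroblast gene Col1a2 5688 to 9591 on its brightest probe set. Macrophage markers were among the bright ones, with Cd68 at 1061 to 2435 and Lyz2 at 5667 to 23696, and of 22 listed 18 were on array A and 17 passed. The exception was Itgam at 6.4 to 82.9. Their summed deposited signal was 17736 to 24900 in untreated, 21071 to 33274 in Ang1 and 21275 to 34487 in VEGF rings, so the groups overlapped. Of the 17, 13 were higher after Ang1 (median 0.27) and 12 after VEGF (median 0.22), and 0 passed the test. Over the 7 RNAs 16 were higher after Ang1 (median 0.27) and 17 after VEGF (median 0.48), and again 0 passed. Over the 9 RNAs Pearson's r with the mean of these markers was 0.13 for Ccl2, 0.46 for Ccl3, 0.38 for Ccl4, 0.29 for Ccl5 and 0.27 for Ccl20, and 0.75 for Ccl7 with the 4 markers of array B. Over the 7 RNAs these values were 0.19, 0.54, 0.67, 0.69, 0.24 and 0.79, so the values of Ccl4 and Ccl5 were well above those over 9. The centred mean of those 4 was -0.45 to 0.12 in untreated, -0.99 to 0.60 in Ang1 and -0.06 to 0.39 in VEGF RNAs. Of the 4, 3 were higher after Ang1 (median 0.44) and 3 after VEGF (median 0.37), and 0 passed the test. Cd163 differed by 1.15 ± 0.37 after Ang1 and Adgre1 by 1.04 ± 0.63 after VEGF, each without overlap. Laptm5 differed by -0.81 after Ang1 on array B but by 0.70 on array A. Over the 7 RNAs 3 of the 4 were higher after each factor, with medians of 0.71 and 0.31.

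Most markers of other leukocytes were dim, but some were not. The neutrophil genes S100a8 and S100a9 gave 0.4 to 15.2 and 12.5 to 87.3, while Csf3r, the receptor of a neutrophil growth factor, passed the filter on array B at 39.3 to 240.5. The T cell gene Cd3e gave 0.6 to 125.4 on array A. Of 11 T and NK cell markers 3 passed the filter there, among them Lck, a T cell kinase, at 120.8 to 279.7. The summed signal of those 3 was 270 to 356 in untreated, 345 to 642 in Ang1 and 270 to 378 in VEGF rings. Smooth muscle markers had a summed signal of 10292 to 15970 in untreated against 8362 to 9581 in Ang1 and 7627 to 8458 in VEGF rings. After normalisation 9 of 11 were lower in each treated group, with medians of -0.07 after Ang1 and -0.50 after VEGF, and 0 passed the test. Among the 7 RNAs 9 and 10 were lower, with medians of -0.52 and -0.87. The 1 kept smooth muscle gene of array B, Des, was higher after Ang1 (0.74 ± 0.41), without overlap, and differed by -0.02 after VEGF. Over the 7 RNAs Des differed by 0.46 and -0.09. Endothelial markers on array A had medians of -0.05 after Ang1 and 0.34 after VEGF, and of 0.05 and -0.0045 over the 7 RNAs. On array B both kept endothelial genes, Erg and Tek, the receptor of angiopoietin-1, were lower in each treated group, with medians of -0.78 after Ang1 and -0.33 after VEGF. The probe set of Erg on array A went the other way. It differed by 1.13 ± 0.50 after Ang1, without overlap, and by 0.72 ± 0.50 after VEGF, and by 0.22 and 0.11 over the 7 RNAs. Every treated value of Tek lay below every untreated one (-0.74 ± 0.35 and -0.41 ± 0.35). Fibroblast markers on array A had medians of 0.03 and 0.32, and of -0.08 and 0.02 over the 7 RNAs. The part of these cell types in the chemokine differences was not tested.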

How the data were processed

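Each deposited value is the linear intensity of 1 probe set on 1 array. The submitters' processing notes name MAS5, with no version. Trimmed means (2% off both ends) came to at most 250.1 on 17 of 18 arrays and to 94.8 on array B of Ang1 replicate 3. Per the labels, untreated replicate 1 was labelled by a 2-cycle procedure and the other RNAs by the standard one. Here log2(signal + 16) was quantile normalised within each array type, 57 control probe sets per type were left out, and the dimmest 40% by mean level were dropped, leaving 9520 and 9166. Symbols came from the platform annotation, updated by gene ID (12754 of 12789 single-symbol probe sets matched on array A, 7530 of 7570 on array B). Groups were compared with limma 3.58.1 in R 4.3.3, in 1 model over 9 arrays per type with an intensity trend and Benjamini-Hochberg adjustment at 0.05 over all kept probe sets. Scripts were tested on simulated data. The number of arrays limits the precision. Deviations of same-numbered RNAs from their group means correlated at 0.14 to 0.49 in all pairs with untreated rings on both array types, and at -0.21 to 0.23 between VEGF and Ang1. Each RNA was also set against the 3 RNAs of another group. In 14 of 18 such cases on each array type, the best correlation was with its own replicate number. These correlations do not show which RNAs share an animal, and no label ties replicate numbers to animals. The main fit therefore used no pairing, so its SEs and p-values leave out any that exists. A fit with replicate number as a block was an alternative. Recomputing the gene lists without untreated replicate 2 and Ang1 replicate 2 was chosen after seeing the data. Members and lists were chosen with earlier results of these data known. The rule for named genes took all members, all CC chemokine receptors, the 5 nearest patterns per array type and, from each list, up to 3 genes per comparison with the largest difference among those without overlap. Of the genes that rule gave, those of endothelial, smooth muscle and macrophage lists are summarised by list, apart from Erg, Tek, Des, Cd163, Adgre1 and Laptm5. Marker genes named for the tissue check were chosen apart from the rule.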

Additional observations from a re-analysis of the deposited data

How the results depend on the processing

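Each difference was recomputed under 17 alternatives, and of 306 member values 296 kept their direction and side of the threshold. With single RNAs left out, Ccl5 ran from -0.35 to 0.90 for VEGF minus untreated, from -0.40 to 0.85 for Ang1 minus untreated (also -0.01 without Ang1 replicate 1) and from -0.17 to 0.43 for VEGF minus Ang1, and Ccl2 from -0.60 to 0.071 for the last. Ccl5 VEGF minus Ang1 was also -0.15 without Ang1 replicate 2, -0.11 without VEGF replicate 2, -0.11 on the deposited scale and -0.15 without untreated replicate 2 and Ang1 replicate 2 together. The median of the array A members for VEGF minus Ang1 ran from -0.70 to -0.17 with 1 RNA left out and was -0.69 without both. Array A members without overlap numbered 1 to 2 (VEGF minus untreated), 2 to 4 (Ang1 minus untreated) and 1 to 2 (VEGF minus Ang1) with 1 RNA left out, and 2, 5 and 2 without both RNAs. For Ang1 minus untreated they numbered 4 on the deposited scale and 1 with arrays shifted to a common median, which moved the median of all probe sets to -0.23. Array weights called 6 (Ang1 minus untreated) and 24 (VEGF minus Ang1) probe sets on array A and, on array B, 2 and 8, and gave Ccl3 1.79 for Ang1 (limma, adjusted p = 0.00600). The deposited scale called 117 (Ang1 minus untreated) and 25 (VEGF minus Ang1) on array B, where Ang1 replicate 3 was scaled lower. There the median of all probe sets was -0.29 and 0.35, and with arrays shifted to a common median it was -0.20 and 0.22. The cause of a change was not tested under any setting. The replicate block changed no call. With it limma called 0 probe sets in each comparison, with 294 (VEGF minus untreated), 415 (Ang1 minus untreated) and 408 (VEGF minus Ang1) on array A at an unadjusted p below 0.05, and 98, 979 and 887 on array B.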
